A study of Mus musculus with 23 samples.

Results

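The liver transcriptome of unexposed mice was described from the 8 arrays of mice that inhaled filtered air, out of 23 arrays in the series. These arrays were chosen by their titles alone, and no measured value was used. The remaining 15 arrays came from mice that inhaled carbon black (8 mice) or diesel exhaust particles (7 mice) in the same study of lung particle exposure, and they enter here only as a check of how far a liver gene keeps its place. Each array held the RNA of 1 mouse in the red Cy5 channel and a purchased universal mouse reference total RNA (Stratagene) in the green Cy3 channel. All 8 mice were female C57BL/6 animals, aged 12 to 13 weeks by the labels, that breathed air for 90 min per day on 4 days. According to the labels the liver was collected 90 min after exposure, whereas the methods give a shorter interval. By the methods the mice were bled by heart puncture and their lungs were then washed out. Of these mice 2 were exposed in the first of 3 rounds, 4 in the second and 2 in the last. Rounds were taken here as the calendar months of the labelled exposure dates. The question addressed is which genes the liver expressed above or below a mixed reference, which it did not detectably express, and how far the mice differed.

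Hepatocytes make up most of the liver mass and secrete most plasma proteins, clear amino nitrogen as urea, make bile acids, store and release glucose, and detoxify foreign compounds through cytochromes P450 and conjugating enzymes. Kupffer cells, sinusoidal endothelial cells, stellate cells and bile duct cells share the tissue, and few cells of a healthy adult liver divide. The reference is a pool of RNA from cultured mouse cell lines, in which cells divide continually, so each value below compares whole liver with that pool. The reference is 1 RNA pool without biological replicates, and no array had the dyes swapped. A dye effect of a feature therefore cannot be told apart from a difference between the RNAs. In whole tissue, fewer cells of a type and less RNA per cell cannot be told apart either.

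Promoters of 2 genes from each end of the comparison are printed first, so that the letters counted below can be seen in place. Each line gives the 120 bases before the annotated start, 5′ to 3′ on the strand of the gene, from RefSeq on GRCm38.p6. Capitals mark the core GTTAAT of the hepatocyte nuclear factor 1 motif, or its reverse complement ATTAAC, in Alb and Fgb. In Mcm6 and Cdc20 they mark the CCAAT box, or its reverse complement ATTGG. Each motif is marked only in the genes named for it, and the Alb line also holds CCAAT and ATTGG, left unmarked. Alb encodes albumin (chr5:90460750-90460869, plus strand) and Fgb the fibrinogen beta chain (chr3:83049864-83049983, minus strand). Mcm6 encodes a subunit of the replicative helicase (chr1:128359706-128359825, minus strand) and Cdc20 an activator of the anaphase-promoting complex (chr4:118437344-118437463, minus strand).
Alb: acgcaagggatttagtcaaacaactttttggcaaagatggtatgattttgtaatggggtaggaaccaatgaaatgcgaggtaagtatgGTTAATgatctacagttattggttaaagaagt
Fgb: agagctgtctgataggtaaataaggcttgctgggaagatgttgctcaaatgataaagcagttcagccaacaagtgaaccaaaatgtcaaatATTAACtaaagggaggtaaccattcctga
Mcm6: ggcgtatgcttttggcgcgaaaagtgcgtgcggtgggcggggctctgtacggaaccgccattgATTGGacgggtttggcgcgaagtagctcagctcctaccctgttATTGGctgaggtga
Cdc20: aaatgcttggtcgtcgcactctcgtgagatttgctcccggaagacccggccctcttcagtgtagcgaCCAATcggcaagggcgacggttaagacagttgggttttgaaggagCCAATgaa
The marked motif began 32 bases before the start in Alb and 29 in Fgb, 57 and 14 in Mcm6, and 53 and 8 in Cdc20. Across all genes, 13425 of 16887 had a promoter in the RefSeq table, and the 250 bases upstream were searched on both strands. GTTAAT was found in 5.15% of all these promoters, in 7.77% of those of genes enriched in liver (108 of 1390) and in 3.44% of those depleted (50 of 1453). Among the lists of plasma proteins, acute phase proteins, apolipoproteins, coagulation and complement factors it was in 24.1% (19 of 79). CCAAT was found in 35.9% of all promoters, in 39.1% of the enriched and 38.7% of the depleted. It was in 73.3% of the cell cycle list (22 of 30) and in 27.8% of the plasma protein lists (22 of 79). The letters of these motifs can overlap at their ends. The forkhead box A motif TGTTTAC was found in 2.67% of all promoters, 3.6% of the enriched and 2.27% of the depleted. TATAAA was in 10.6% of all, 11.4% of the enriched and 7.71% of the depleted. GGGCGG was in 49.0% of all, 47.2% of the enriched and 61.7% of the depleted, but in 11.4% of the plasma protein lists. Depleted genes had a median promoter GC content of 60.0% against 56.8% in the enriched. These matches are descriptions of letters and were not tested.

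Signals were read from 18688 features with a listed gene, which stand for 16887 genes with exactly 1 symbol. Over the 8 arrays the median intensity was 262 to 542 in Cy5 and 233 to 445 in Cy3, in scanner units that end at 65535, and the dimmest spot called present in Cy5 lay at 154.5 to 231.5. No background had been subtracted, so ratios of dim spots are drawn towards 0. The deposited flags called 13.8% to 41.9% of these features absent in Cy5 and 18.4% to 37.4% absent in Cy3. Between 59 and 271 features per array were saturated in Cy5 and 43 to 70 in Cy3, and such spots give only a bound. Log2 ratios of liver to reference were normalised by loess within each array and are therefore relative to the centre of that array. Each array correlated with the mean of the other 7 at r = 0.953 to 0.976 across features, which are not independent replicates. The array of mouse 443 had the dimmest Cy5 signal (median 262), the most absent features (41.9%) and a slope of 0.906 on the mean of the others, and it is named below where it stands apart.

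The hepatocyte markers were strongly enriched. Transthyretin (Ttr, NM_013697), the carrier of thyroxine and retinol-binding protein, was the marker without a saturated spot. Its log2 ratio ranged from 4.91 to 5.93 over the 8 mice with a median of 5.24, and the mean was 5.28 ± 0.32 (SD, n = 8), a 38.8-fold excess in liver (limma, adjusted p = 2.33e-13). No mouse came near the reference level of 0. Albumin (Alb, NM_009654) was saturated at 65535 in Cy5 on all 8 arrays while the reference gave 1948 to 5898.5, and liver was at least 12.3-fold higher on the scale used here (log2 ratio 3.62, or 3.03 under the deposited ratios). Such bounds enter a saturated spot at its value after normalisation, so they shift with the scaling and are open to dye bias. Apolipoprotein E (Apoe, NM_009696), a ligand of lipoprotein receptors, was also saturated on all 8 and at least 14.6-fold higher on the same scale (log2 ratio 3.87, or 3.28 under the deposited ratios). Transferrin (Trf, NM_133977), the iron carrier of plasma, had a log2 ratio of 3.45 to 7.81 with a median of 4.02. Its highest value belonged to mouse 443, whose reference spot read 332.5 against as much as 4270 on other arrays, so the spread followed the Cy3 spot while Cy5 stayed saturated. The label of the tissue therefore held for every mouse by all 4 markers.

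A feature is called enriched when its mean log2 ratio was at least 1, its adjusted p was under 0.05 and Cy5 was present on all 8 arrays. It is called depleted at −1 or lower with Cy3 present on all 8. By these rules 1858 features (9.94%) were enriched and 1987 (10.6%) depleted, which stand for 1748 and 1873 genes. With 8 mice, even small differences passed the test, as 12256 features had an adjusted p under 0.05 at any size. The sizes were not symmetric. Among the enriched features 537 exceeded a log2 ratio of 3 and 120 exceeded 5, whereas 117 depleted features lay beyond −3 and 2 beyond −5. The ratio had the same sign in all 8 mice in 1849 enriched and 1970 depleted features, and it passed 2-fold in every mouse in 1303 (70.1%) and 1209 (60.8%). These 8 mice also set the calls, so agreement of sign among them was largely fixed by the rule. In the 15 particle-exposed mice, whose arrays did not enter the calls, 1798 of the enriched features (96.8%) and 1861 of the depleted (93.7%) kept the same sign in every mouse. Of 1247 genes with more than 1 feature, none had features called in opposite directions (0 genes), and 959 had all features called alike.

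**Figure D1:**
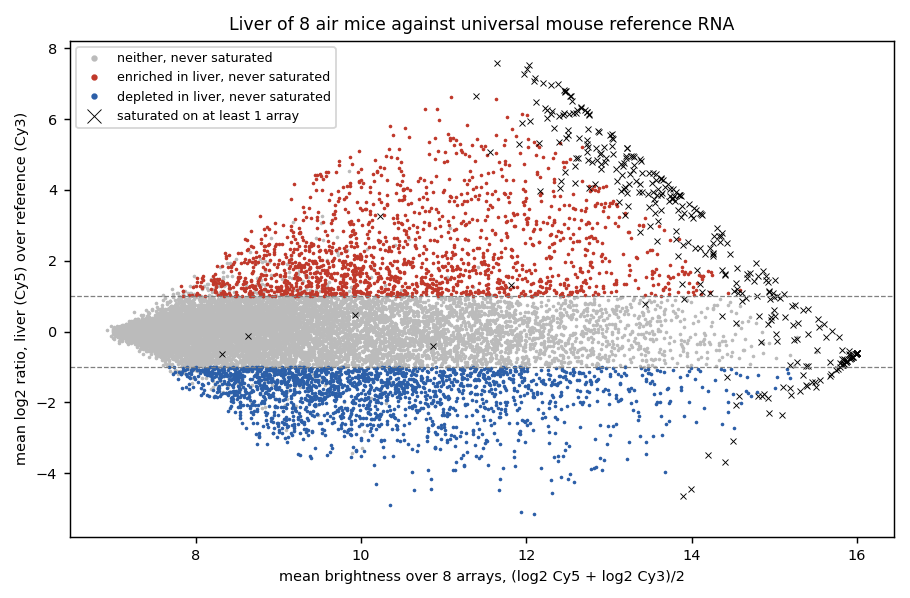
Mean log2 ratio of liver over reference (vertical axis) against mean brightness of both channels on a log2 scale (horizontal axis), for 18688 features over 8 air mice. Red points are the enriched and blue points the depleted features that were never saturated, crosses mark features saturated on at least 1 array, and dashed lines mark 2-fold; the enriched side reaches beyond 7 while the depleted side ends at −5.15.

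The 15 genes with the highest ratios among unsaturated enriched features are named next. Dihydropyrimidine dehydrogenase (Dpyd), which starts the breakdown of uracil and thymine, had log2 ratios of 6.18 to 7.34 with a median of 6.59, and its mean of 6.64 ± 0.33 (SD, n = 8) was 99.7-fold above the reference. Protein Z (Proz), a vitamin K-dependent plasma protein, had 6.56 ± 0.30. The Dpyd spot was absent in the reference on 3 of 8 arrays and the Proz spot on none. The tocopherol transfer protein Ttpa (6.29), monoamine oxidase B (Maob, 6.28), the liver glycogen synthase Gys2 (6.14) and the lipid droplet protein perilipin 5 (Plin5, 6.11) followed. Plin5 was among the steadiest of these, with an SD of 0.19. The others of the leading 15 were Aass, which degrades lysine, Baat, which conjugates bile acids, Dmgdh and Ftcd of choline and histidine breakdown, the aldehyde oxidase Aox3, the glucose transporter Slc2a2, the glucokinase regulator Gckr, the coagulation factor F13b and Cd5l, a protein secreted by macrophages, all between 5.55 and 6.07. Dmgdh was at 2.93 in mouse 54 against 5.75 or more in the other 7.

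**Figure D2:**
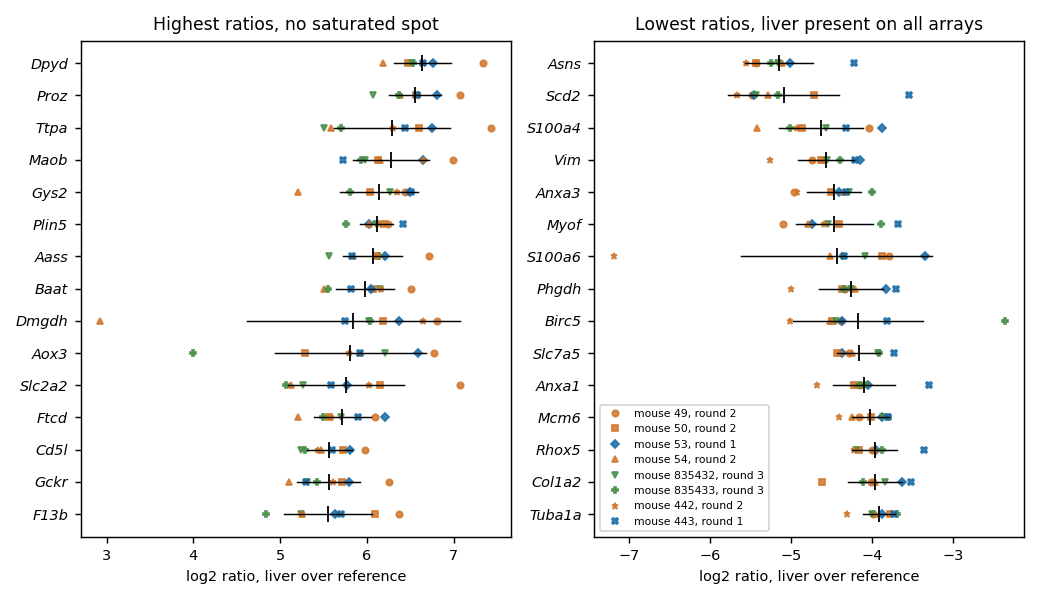
Log2 ratio of liver over reference (horizontal axes) in each of 8 air mice for the 15 highest genes without a saturated spot (left) and the 15 lowest genes present in liver on all arrays (right). Symbols are mice coloured by exposure round, vertical ticks are means and horizontal lines 1 SD; mouse 54 lies apart in Dmgdh (2.93), mouse 442 in S100a6 (−7.19) and mouse 443 in Scd2 (−3.54).

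Genes of secreted plasma proteins were enriched nearly without exception. Lists are given by their genes, with the brightest feature of each, beside 10.3% enriched, 10.9% depleted and a median log2 ratio of 0.03 over all 16887 genes. All 31 measured plasma carrier and secreted proteins were enriched (median 4.27), as were all 22 coagulation and fibrinolysis genes (median 4.78). In these lists lay Ambp, the precursor of alpha-1-microglobulin, at 6.78, the growth factor-binding protein Igfbp1 at 6.32, prothrombin (F2) at 6.98 and the fibrinogen gamma chain (Fgg) at 6.79. F2, Fgg and Ambp were saturated in Cy5 on all 8 arrays, so that liver was at least 127-fold, 111-fold and 110-fold higher on the scale used here. Under the deposited ratios their log2 ratios were 6.45, 6.25 and 6.24, and Ambp was at 6.45 without mouse 443. In all, 20 of the 31 carriers had a saturated spot. Of 16 complement genes 15 were enriched (median 3.96), led by complement factor I (Cfi, 7.53, saturated on 6 arrays) and complement C5 (Hc, 6.12). The 17 apolipoproteins and lipid carriers included 16 enriched genes (median 4.10), among them the fatty acid-binding protein Fabp1 at 6.82 and apolipoprotein B (Apob) at 5.37.

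Positive acute phase proteins, which the liver secretes in larger amounts during inflammation, were enriched in 13 of 14 genes (median 3.60). The orosomucoids Orm1 and Orm2 stood at 5.27 ± 0.35 and 5.13 ± 0.50 (SD, n = 8), the constitutive serum amyloid Saa4 at 5.08 and the protease inhibitor Serpina3n at 4.93. The inducible Saa1 and Saa2 stood at 4.05 ± 0.50 and 4.16 ± 0.45 (SD, n = 8), with 3 arrays saturated for each. Saa3 was the gene not called, at 0.83 ± 1.51, and is described with the variable genes.

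**Figure D3:**
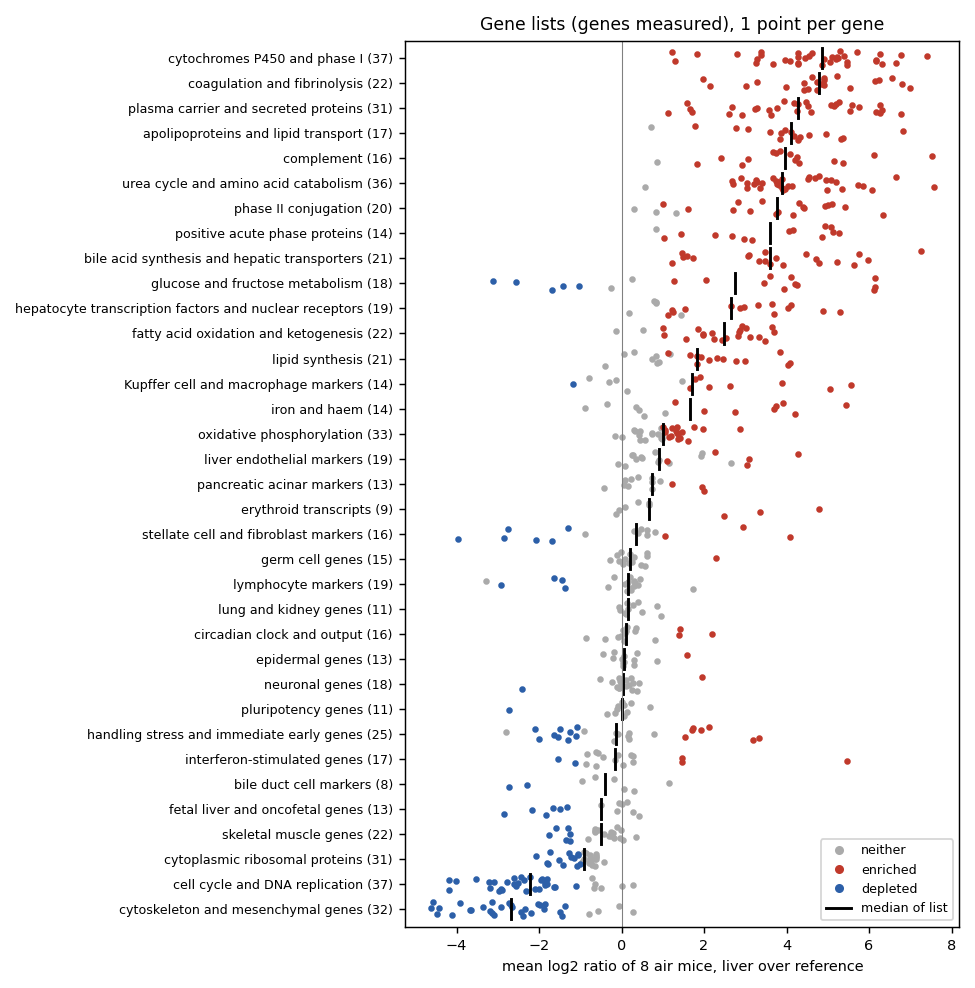
Mean log2 ratio of liver over reference over 8 air mice (horizontal axis), with 1 point per measured gene of each list (vertical axis, number of genes measured in brackets). Red, blue and grey points are enriched, depleted and neither, and black ticks are list medians, which run from 4.86 for cytochromes P450 to −2.67 for cytoskeletal and mesenchymal genes.

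Enzymes of detoxification were as complete. All 37 measured cytochromes P450 and other phase I genes were enriched (median 4.86). Cyp3a16, a steroid and drug hydroxylase, had log2 ratios of 7.16 to 7.66 with a median of 7.42 although 5 arrays were saturated, and its SD was 0.16. Cyp3a41a (6.79) and Cyp2a4 (6.64) were saturated on all 8 arrays. Phase II conjugation was enriched in 17 of 20 genes (median 3.77), led by the glutathione transferase Gsta3 (6.35) and the sulfotransferase Sult1a1 (5.41 ± 1.21). The glucuronosyltransferase Ugt2a3 ranged from 0.91 in mouse 835432 to 7.39. All 21 genes of bile acid synthesis and hepatic transport were enriched (median 3.59). The organic anion transporter Slco1b2 stood at 7.26 and the bile salt export pump Abcb11 at 5.64, but the first enzyme of bile acid synthesis, Cyp7a1, at 1.73 ± 0.28 and the bile salt uptake carrier Slc10a1 at 1.58 ± 0.34. Both of the last gave dim spots (Cy5 of 412 to 852 and 362 to 723) with the reference absent on 6 and 8 arrays.

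Of 36 genes of the urea cycle and amino acid breakdown 35 were enriched (median 3.90). Carbamoyl-phosphate synthase (Cps1), the entry enzyme of the urea cycle, had log2 ratios of 7.02 to 8.11 with a median of 7.59, and its mean of 7.58 ± 0.35 (SD, n = 8) was the highest of all gene lists at 191-fold. Its Cy5 spot was saturated on 3 of 8 arrays and its Cy3 spot absent on 2, so the fold has both limits on those arrays. Arginase (Arg1, 5.35 ± 0.16) and ornithine transcarbamylase (Otc, 4.52 ± 0.43) of the same cycle were also enriched.

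Glucose metabolism held genes of both calls. Of 18 genes 11 were enriched and 5 depleted (median 2.74). The enriched included the liver glycogen phosphorylase Pygl (6.14), the gluconeogenic enzymes Fbp1 (6.12), Pck1 (4.21) and G6pc (3.94), and ketohexokinase (Khk, 4.26) of fructose breakdown. The depleted were isoforms used outside the hepatocyte: pyruvate kinase M (Pkm, −3.13 ± 0.21), platelet phosphofructokinase (Pfkp, −2.56 ± 0.41), aldolase A (Aldoa, −1.68 ± 0.46, with Cy3 saturated on 7 arrays), hexokinase 2 (Hk2, −1.41 ± 0.32) and hexokinase 1 (Hk1, −1.03 ± 0.26). All 8 mice lay between −3.53 and −2.82 in Pkm and between 5.73 and 7.17 in Fbp1. The call of Hk1 rested on the setting, as its mean was −0.99 under the deposited ratios.

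Fatty acid oxidation and ketogenesis held 20 enriched genes of 22 (median 2.48), with the peroxisomal enzyme Ehhadh at 3.70 and the lipid-sensing receptor Ppara at 3.66. Lipid synthesis held 13 of 21 (median 1.83), with the triglyceride-forming Dgat2 at 4.09 and the mitochondrial acetyl-CoA carboxylase Acacb at 4.02, whereas the cytosolic Acaca was at −0.41 ± 0.34. Among hepatocyte transcription factors and nuclear receptors 14 of 19 were enriched (median 2.66). The forkhead factors Foxa2 (5.29 ± 0.48) and Foxa3 (4.88 ± 0.38), the nuclear receptor Nr5a2 (4.11) and the bile acid receptor Nr1h4 (4.04) led this list, and Hnf4a stood at 1.22 ± 0.39. Iron and haem genes were enriched in 8 of 14 (median 1.65), with the second transferrin receptor Tfr2 at 5.45, the protease Tmprss6, which restrains hepcidin, at 3.91 and the iron hormone hepcidin (Hamp) at 3.70.

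Oxidative phosphorylation lay near the limit of 2-fold and its count depended on the scaling. Of 33 genes 17 were enriched and none depleted (median 1.01), led by Sdha of the succinate dehydrogenase at 2.88. Under the deposited ratios 4 were enriched (median 0.47), and with median centring 22 (median 1.23), while the median stayed above 0 in each. The same held on the other side for cytoplasmic ribosomal proteins, where 13 of 31 were depleted (median −0.92) but 30 under the deposited ratios (median −1.37) and 8 with median centring (median −0.53). Saturated spots were common in that list, with 23 genes saturated at least once in Cy3 and 18 in Cy5. The median of all features was 0.02 here, 0.01 under the deposited ratios and −0.003 with median centring. With loess that left out absent and saturated spots it was 0.11.

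The 15 lowest genes present in liver on all arrays are named next. Asparagine synthetase (Asns, NM_012055) had log2 ratios of −5.56 to −4.22 with a median of −5.21, and its mean of −5.15 ± 0.42 (SD, n = 8) placed liver 35.6-fold lower (limma, adjusted p = 1.29e-12). The brain form of stearoyl-CoA desaturase, Scd2, stood at −5.09 ± 0.69, the serine synthesis enzyme Phgdh at −4.26 ± 0.39 and the amino acid transporter Slc7a5 at −4.17 ± 0.27. In all of these every mouse lay at −3.54 or lower, and mouse 443 was the highest in Asns and Scd2. The calcium-binding proteins S100a4 and S100a6 were saturated in the reference on all 8 arrays, so liver was at least 24.8-fold and 21.7-fold lower on the scale used here. Their log2 ratios of −4.63 and −4.44 became −4.41 and −4.22 with median centring, and S100a6 was at −4.05 without mouse 442, which lay at −7.19. Vimentin (Vim, −4.57), annexin A3 (Anxa3, −4.47), myoferlin (Myof, −4.47), annexin A1 (Anxa1, −4.10), collagen Col1a2 (−3.97), the reproductive homeobox gene Rhox5 (−3.97) and the tubulin Tuba1a (−3.92) were also among the lowest 15.

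Cell division and cytoskeletal genes were largely depleted. Of 37 cell cycle and DNA replication genes 31 were depleted and none enriched (median −2.22). The apoptosis inhibitor and mitotic protein survivin (Birc5) stood at −4.18 ± 0.80, the proliferation marker Mki67 at −4.17 ± 0.65, the helicase subunit Mcm6, whose promoter is printed above, at −4.02 ± 0.23 and the ribonucleotide reductase Rrm1 at −3.53 ± 0.32 (SD, n = 8). Pcna, the sliding clamp of DNA polymerase, was depleted but still bright in liver, with Cy5 of 5505 to 12211 against Cy3 of 17234 to 33884. In this list 4 genes (10.8%) were absent in liver on all arrays, beside 7.35% of all genes. Cy5 was present on all arrays for 22 of the 37, beside 8715 of all 16887 genes. Of 32 cytoskeleton and mesenchymal genes 28 were depleted and none enriched (median −2.67), including beta-actin (Actb, −1.43 ± 0.12). Fetal liver and oncofetal genes were depleted in 6 of 13 (median −0.50), with Dlk1 at −2.86, Hmga2 at −2.17, Cd24a at −1.83 and Igf2bp1 at −1.66, while alpha-fetoprotein (Afp), the albumin-like protein of the fetal liver, was at 0.42 ± 0.28 and dim in both channels (Cy5 177 to 694).

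A feature was taken as absent in liver when the deposited flag called Cy5 absent on all 8 arrays, which held for 1515 features (8.11%). Cy5 was present on all 8 arrays for 9315 (49.8%), and the remaining 7858 were absent on 1 to 7. Of the 1515, the reference was also absent on all arrays for 945 and on some for 532, and 38 had a reference present on every array, of which 27 were called depleted. For these 38 the reference was at least 1.35-fold to 7.57-fold higher (median 1.99), where the bound sets the reference against the dimmest present liver spot of each array. The largest bounds were those of Mgat3, a glycosyltransferase that adds bisecting N-acetylglucosamine, at 7.57-fold and of the secreted pentraxin Ptx3 at 7.26-fold. Mgat3 gave Cy5 of 131 to 221 and Cy3 of 878 to 1867 with no overlap. Of the other 8 with the brightest reference, several act in cell division: the spindle motor Kif11 (at least 3.23-fold), the cohesin protector Sgo2a (2.93-fold), the PCNA-binding Pclaf (2.88-fold), the G2 and S phase protein Gtse1 (2.41-fold) and the origin licensing factor Cdc6 (2.51-fold). Gli3, a transcription factor of hedgehog signalling, had a bound of 3.14-fold. Across all 23 arrays of the series, 885 of the 1515 were absent on every one.

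**Figure D4:**
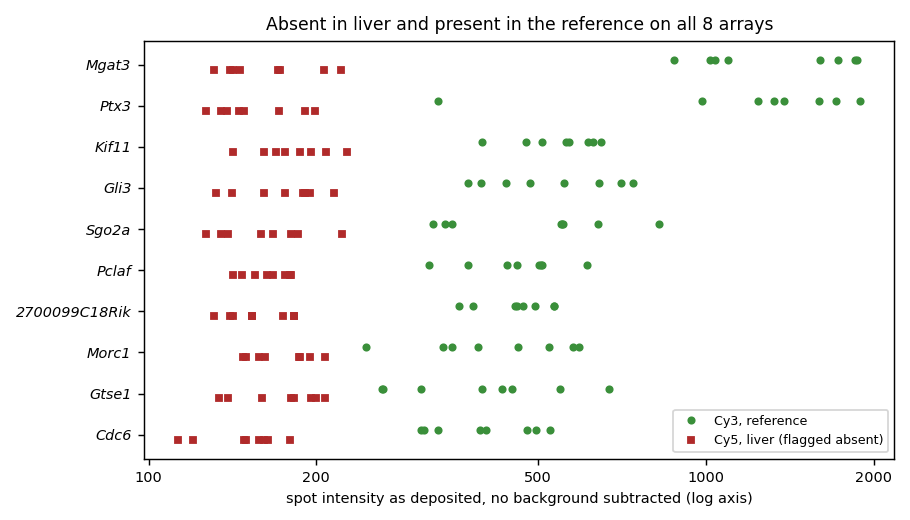
Spot intensity as deposited, on a log axis (horizontal), for the 10 genes absent in liver and present in the reference on all 8 air arrays. Red squares are liver (Cy5) and green circles the reference (Cy3), 1 of each per array; liver spots of these genes lie between 113 and 227, and Mgat3 and Ptx3 have the brightest reference spots, at up to 1867 and 1893.

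The converse, a liver signal on all 8 arrays beside a reference absent on all 8, was found for 51 features of 45 genes. Liver was at least 1.42-fold to 24.5-fold higher (median 2.33), and the genes named here were chosen after their values were seen. The potassium channel Kcnn2 was at least 24.5-fold higher, with Cy5 of 2370 to 7064 against Cy3 of 117 to 196. It was spotted on 10 features, all of them enriched, with means between 4.18 and 4.82. The sulfotransferase Sult1b1 had a bound of 18.9-fold, Gpr182, a receptor of sinusoidal endothelium, 7.70-fold, the drug-sensing receptor Nr1i2 6.88-fold and the scavenger receptor Cd163 of Kupffer cells 5.13-fold.

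Other liver cells were seen through their own genes, although the reference pool can express the same genes. Kupffer cell and macrophage markers were enriched in 8 of 14 genes and depleted in 1 (median 1.72). Cd5l (5.57 ± 0.26), the complement subunit C1qa (5.04 ± 0.39) and the Kupffer cell lectin Clec4f (3.90 ± 0.16) were at 3.68 or more in every mouse, while the general macrophage genes Adgre1 and Lyz2 were at 0.13 ± 0.37 and −0.14 ± 0.41, and Cd68 at −1.18 ± 0.49. Endothelial markers were enriched in 5 of 19 (median 0.90). The phosphatase Ptprb (4.28 ± 0.59), Gpr182 (3.08 ± 0.66) and the sinusoidal lectin Clec4g (3.03 ± 0.31) led, and Ehd3 was at 2.64 ± 1.18 but not called because Cy5 was absent in mouse 54, without which it was at 3.02. Stellate cell and fibroblast markers were split, with 3 enriched and 6 depleted of 16 (median 0.36, or −0.06 under the deposited ratios). Colec11, a collectin of quiescent stellate cells, stood at 4.07 and reelin (Reln) at 2.94, against the fibrillar collagens Col1a2 and Col3a1 at −3.97 and −2.85 and smooth muscle actin (Acta2) at −1.69. Bile duct markers held 0 enriched and 2 depleted of 8 (median −0.41), with Epcam at −2.72 and Krt19 at −2.29. The mean ratio was above 0 in 3 of the 8, up to 1.15. Krt23 gained an enriched call without mouse 443 (1.25), and Krt7 a depleted one with median centring (−1.07). Among 19 lymphocyte markers 0 were enriched and 4 depleted (median 0.16), the latter including Cd79b (−2.91) and Ptprc (−1.64). The mean ratio was above 0 in 12 of the 19, up to 1.72. Without mouse 54, Cd3e gained an enriched call (1.96) and Jchain a depleted one (−3.70).

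Erythroid transcripts were also measured in the tissue. Of 9 erythroid genes 3 were enriched, the globins Hbb-b2 (4.78 ± 0.36) and Hba-a1 (saturated on all 8 arrays, at least 10.2-fold higher on the scale used here) and the haem synthesis enzyme Alas2 (2.48 ± 0.37). The globin genes Hba-x and Hbb-bh1, which are embryonic, were absent on 8 and 3 arrays. No genes of lung and kidney were enriched (0 of 11), and skeletal muscle genes held 0 enriched and 6 depleted of 22. Pancreatic acinar markers, which would mark adhering pancreas, held 3 enriched of 13 (median 0.72), with amylase (Amy2) at 2.01 ± 0.44, Cela2a at 1.96 ± 0.44 and Cpa1 at 1.21 ± 0.41. The 10 features of Cpa1 had a mean of 1.06 and ranged from 0.44 to 1.41, and 3 of them were called. The Cy5 signals of the 3 genes were low, at 436 to 1524, 652 to 1988 and 328 to 1513, and the part of other tissue in them was not tested. Neuronal, epidermal, germ cell and pluripotency lists held 1, 1, 1 and 0 enriched genes of 18, 13, 15 and 11.

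Genes known to differ between female and male mouse liver were looked at separately, as all 8 mice were labelled female. Of 11 female-biased genes 9 were enriched (median 3.80), led by Cyp3a16, Cyp3a41a, Cyp2a4 and Cyp2b9 (5.06 ± 1.03). Of 11 male-biased genes 6 were enriched (median 1.47), with the glucuronosyltransferase Ugt2b38 at 5.94 ± 0.74, while the male-specific Hsd3b5 was at 0.17 ± 0.28 and absent in Cy5 on 4 arrays. Members of these families are close in sequence, and which copy a probe measured was not tested. Circadian genes were enriched in 3 of 16, the output factors Hlf (2.19) and Dbp (1.38) and the clock gene Per2 (1.41 ± 0.56). Dbp was at 0.78 under the deposited ratios and then not called. Handling stress and immediate early genes held 7 enriched and 9 depleted of 25. The feedback inhibitors Errfi1 (3.34 ± 0.16) and Cish (3.19 ± 0.30) and the glucocorticoid target Tsc22d3 (2.11 ± 0.36) were enriched, and Egr1 (−1.99 ± 0.93) and Gadd45b (−1.63 ± 0.89) were depleted. Of 17 interferon-stimulated genes 3 were enriched, led by the GTPase Iigp1 at 5.46 ± 0.34, and 2 were depleted, including Isg15 at −1.55 ± 0.22.

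The steadiness between mice was measured on the 7844 features that were present in both channels on all 8 arrays and never saturated. The median SD of the log2 ratio over the 8 mice was 0.200, with 0.122 and 0.341 as the 10th and 90th percentiles. The Cy5 level alone had a median SD of 0.315 and the Cy3 level, which holds the same RNA on every array, 0.260. An SD over 0.5 was found for 178 features and over 1 for 17. The median SD was 0.265 for 1237 enriched features, 0.218 for 1371 depleted ones and 0.187 for 5236 called neither, a difference that was not tested. Across 4 groups of equal size from dim to bright the median SD was 0.200, 0.224, 0.201 and 0.177. In the 15 exposed mice it was 0.216. Genes spotted on 10 features gave a measure of the error within an array. Guanidinoacetate methyltransferase (Gamt), which completes creatine synthesis, had feature means of 3.53 to 3.64. Its SD was 0.150 between single spots of 1 array (median over arrays) and 0.204 between mice for the mean of its 10 spots. Spot error is averaged down in the latter, so these SDs are unlike measures. For Cpt1a, the carnitine transferase that admits fatty acids to mitochondria, the corresponding SDs were 0.133 and 0.217. These were chosen after their values were seen, and they belong to the 7 genes with every feature enriched, of which 1 had an SD between spots above that between mice. Over all 47 genes with 10 or more features, 31 had the larger SD between spots.

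The steadiest enriched genes were Ppdpf (1.04 ± 0.04), the deacetylase Sirt7 (1.12 ± 0.05), Pter (1.97 ± 0.06), the transcription factor Foxh1 (1.75 ± 0.06) and Fbxo27 (1.27 ± 0.07). Ppdpf and Sirt7 were at 0.56 and 0.82 under the deposited ratios and then not called. Among the 10 largest SDs, most rested on 1 array. Slc45a3 (2.31), Ube2cbp (2.12) and Taok1 (1.62) lie next to each other in the feature order and were high only in mouse 835433, at 7.02, 5.95 and 4.46, against at most 1.08, 0.42 and 0.23 in the other 7. Rnasek was also high only there, at 4.71. The spread of Gpld1 (SD 1.68), Ncoa6 and Atp6ap2 lay in the reference, as their Cy3 levels had SDs of 1.69, 1.69 and 1.29 against 0.587, 0.466 and 0.348 in Cy5. Mad2l1bp and Pald1 varied in both channels.

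Saa3, an acute phase serum amyloid made by macrophages and other cells outside the hepatocyte as well, had no single mouse standing apart. Its log2 ratio was −1.18 in mouse 49, −0.69 in mouse 54, −0.08 in mouse 835432, 0.69 in mouse 835433, 0.71 in mouse 50, 1.62 in mouse 442, 2.51 in mouse 443 and 3.12 in mouse 53. The Cy5 level had an SD of 1.68 and the Cy3 level 0.302. Lipocalin 2 (Lcn2), an iron-scavenging protein also induced in inflammation, had 0.55 to 2.54 with a mean of 1.44 ± 0.76, and its highest values were again those of mice 53 (2.54) and 443 (2.36), both of the first round. Saa1 and Saa2 ranged from 3.34 to 4.76 and 3.21 to 4.55. To find further genes of this kind, features with a Cy3 SD at or under 0.260, the median, and no mouse apart were taken. Saa3, with 0.302, lay outside this choice, which was made after values were seen and held 3558 features, 1 per gene. Of them 16 had a ratio SD over 0.5. They included the stress gene Gadd45b (−2.37 to 0.30), the pyruvate dehydrogenase kinase Pdk4 (−0.07 to 1.99), which spares glucose in fasting, the circadian deubiquitinase Usp2 (1.10 to 2.89), Lcn2, Gdpd1, Nipal1 and Shisa4. Outside that choice, the chemokine Cxcl1 ranged from −2.32 to 0.67 and Egr1 from −3.21 to −0.16.

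**Figure D5:**
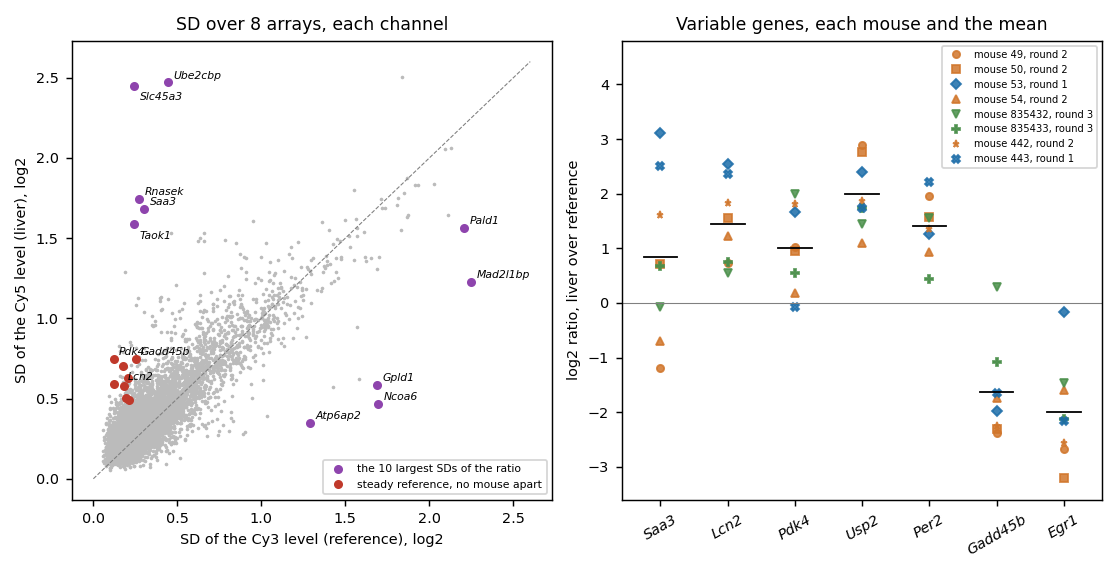
Left, SD over 8 arrays of the Cy5 (liver, vertical) and Cy3 (reference, horizontal) level in log2 units, 1 point per feature, with the 10 largest ratio SDs in purple and variable genes with a steady reference in red. Right, log2 ratio of liver over reference (vertical axis) of 7 variable genes in each mouse with the mean as a bar; mice 53 and 443 are the highest in Saa3 (3.12 and 2.51) and Lcn2.

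Between the 3 exposure rounds no feature differed after adjustment (0 of 18688, 0.0%, limma F test). An unadjusted p under 0.05 was found for 906 features, near the share that this limit passes when nothing differs. That count depended on the scaling, with 1733 under median centring and 1979 with loess that left out absent and saturated spots. The smallest p belonged to Dido1, a chromatin-binding protein, with round means of −1.53, −1.57 and 0.68 (limma, adjusted p = 0.0668). Rfc1 and Pnn, of DNA replication and RNA splicing, had round means of −1.61, −1.79 and −0.29 and of −1.59, −1.88 and −0.29. Lcn2 had 2.45, 1.34 and 0.65 (limma, adjusted p = 0.882). Leaving out mouse 53 gave 23 features, mouse 835432 gave 17, mice 443 and 835433 gave 5 each and mouse 54 gave 2. Except for mouse 54, each of these fits leaves a round of 1 mouse, which is assumed to vary like the mice of the other rounds. Exposure day and array set, as random blocks, had consensus correlations of 0.0434 and 0.092. Array sets were grouped here as runs of nearby array numbers and are not a batch named in the labels. The 2 mice of the last round were the only air mice in their array set. A shift of that round, as in Dido1, Rfc1 and Pnn, therefore cannot be told apart from that set.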

How the data were processed

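Liver RNA was labelled with Cy5 and the reference with Cy3 on Agilent oligonucleotide arrays, 1 array per mouse. The authors scanned the arrays on a ScanArray Express and read the spots with ImaGene, and they deposited both channels of every spot as intensity on a linear scale, without subtraction of background. The authors also deposited flags of absent spots, set from the trimmed mean and SD of a negative control probe on each array, and log2 ratios normalised by a lowess curve in R 2.4.1 (per the labels). The series table held the same deposited log2 ratios and was not used separately.

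Here those intensities were turned into log2 ratios of Cy5 over Cy3 with limma 3.58.1 (R 4.3.3), by a loess curve within each array. Of 22575 features 18688 had a listed gene and were used. The other 3887 may hold control spots that the files do not name and were left out. Gene names came from the platform annotation and were checked against current identifiers (18445 features matched). The 8 air arrays were fitted with lmFit and eBayes with an intercept against 0, with Benjamini-Hochberg adjustment over all 18688 features at 0.05 and a minimum of 2-fold. With 1 array per mouse, the spread over these arrays holds differences between mice and between arrays together. The 3 exposure rounds were compared with limma's F test. A spot at 65535 was saturated. For absent spots, bounds were taken from loess and Aquantile values of each channel. Precision is limited by having 8 arrays. The tests were checked on simulated data with known changes and independent noise per feature, without array effects, saturation or absent flags.

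Named genes were the 4 markers, the 15 highest unsaturated enriched and 15 lowest depleted features (present in liver on all arrays), the 10 absent in liver with the brightest reference, the 10 largest SDs, the 5 smallest SDs of enriched features, up to 4 members of each list with the largest ratios and the 10 smallest p between rounds. Other genes named were chosen after their values were seen. The arrays, markers and gene lists were chosen with earlier results of these data known. The alternatives were the deposited ratios, median centring, loess without absent or saturated spots, normexp (offset 50), a filter that drops dim features, no use of flags, a minimum of 4-fold, a test against the 2-fold minimum, blocks for round, day or array set, single rounds, averaging a gene's features, Cy5 alone and leaving out each mouse.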

Additional observations from a re-analysis of the deposited data

Results flagged for a closer look

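Of the 253 features named, 41 had a mouse that stood apart from the other 7 by Dixon's criterion for 8 values. Chance alone meets this criterion in about 1 in 20 groups, but the count cannot be set against that rate. The named features include those with the largest SDs, and some variable genes chosen because no mouse stood apart. All of them also share the same 8 arrays. Of the 41, mouse 443 accounted for 12, mouse 54 for 8, mouse 50 for 6, mouse 835433 for 5, mouse 442 for 4 and mice 49 and 835432 for 3 each.

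On the array of mouse 443, the dimmest in Cy5, 9 depleted genes lay nearest to 0, with log2 ratios of −4.22 for Asns, −3.54 for Scd2, −3.36 for Rhox5, −3.31 for Anxa1, −2.63 for Mki67, −1.61 for Rps19, −1.42 for Ptx3, −1.40 for Cd24a and −1.11 for Kif11. Ambp (9.12), Trf (7.81) and Fbp1 (7.17) were highest there, with a Cy5 spot saturated on 7 or 8 arrays.

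Mouse 54 was lowest in Cyp2b9 (2.62), Dmgdh (2.93), Atp5a1 (1.24), Ehd3 (−0.014) and Mad2l1bp (−3.58) and highest in Cd68 (−0.063), Ier3 (−0.14) and Jchain (−0.36). Mouse 50 was lowest in Olfr706 (1.81), Olfr106-ps (0.24), Hbb-y (−0.085) and Pald1 (−3.61) and highest in Cyp2d9 (7.07) and Isg15 (−1.02). In mouse 835433 Slc45a3 (7.02), Ube2cbp (5.95), Rnasek (4.71), Taok1 (4.46) and Birc5 (−2.36) were highest.

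Mouse 442 was lowest in Upb1 (3.07), Ncoa6 (−4.48) and S100a6 (−7.19) and highest in Adgre1 (1.00). Mouse 49 was highest in Sult1b1 (5.45) and Ptprc (−0.12) and lowest in Gpld1 (−0.36), and mouse 835432 was lowest in Ugt2a3 (0.91), Hnf4a (0.40) and Atp6ap2 (−3.77). The reference level had the larger SD of the 2 channels in Mki67, Trf, Ambp, Scd2, Ptx3, Anxa1 and Rps19 (mouse 443), Jchain, Ier3 and Mad2l1bp (mouse 54), Cyp2d9, Isg15 and Pald1 (mouse 50), Hnf4a and Atp6ap2 (mouse 835432), Ncoa6 (mouse 442) and Gpld1 (mouse 49). The part of array quality in these values was not tested.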

How the results depend on the processing

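Enriched and depleted features numbered 1858 and 1987, and 1682 and 2280 under the deposited ratios, 1813 and 2070 with median centring, 2078 and 2235 after normexp, 2009 and 2086 without flags, 1503 and 1496 tested against the 2-fold minimum, and 900 and 549 at a minimum of 4-fold. Leaving out 1 mouse gave 1821 to 1952 and 1957 to 2059. Absent features numbered 1515, 1546 to 1906 without 1 mouse, 3139 when absent on at least 6 of 8 arrays sufficed and 885 over all arrays of the series. Features that differed between rounds numbered 0, 1 with median centring and 0 to 23 without 1 mouse. The median SD between mice was 0.200, 0.191 to 0.204 without 1 mouse and 0.315 for Cy5 alone. Genes called in the lists numbered 448, and 445 to 454 without 1 mouse.

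No named gene changed sign past the threshold. Over the 253 named features and the planned settings, 14 values lost and 29 gained their call. Of these gains 7 came without mouse 54 (Saa3, Ehd3, Jchain, Cd3e, Sftpd, Ier3 and Gdpd1). A larger class of 72 values moved in size, 30 within the first round alone and 42 within the last, each a round of 2 mice. Among them Dido1 lay at 0.68 within the last round, against a negative mean over all mice. Pdk4 lost its call without mouse 53, 835432 or 442 (0.92, 0.87 and 0.90), and Hk1 without mouse 50 (−0.98). Cpa1 lost it within the second round (0.99). No paired analysis was possible because the mice carry no replicate numbers shared with another group compared here; the ratios themselves already pair liver and reference on each array. Saturation bounds the brightest genes, and signals near 150 to 230 the dimmest.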

Other observations

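Olfactory receptors, a large family of chemosensory receptors with little known expression in liver, were measured through 742 genes. Of these 35 were enriched (4.72%), 0 were depleted and 79 were absent in liver on all 8 arrays (10.6%), beside 10.3%, 10.9% and 7.35% of all genes, and the median log2 ratio was 0.21. The highest were Olfr430 (3.91 ± 0.68, SD, n = 8, with Cy5 of 3037 to 17088), Olfr706 (3.73 ± 0.91) and the pseudogene Olfr106-ps (3.16 ± 1.27). The specificity of these probes was not tested.

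Among transcripts of the sex chromosomes, Xist, which is made from the inactive X, gave Cy5 of 948 to 12780 and a log2 ratio of 0.57 ± 0.25 (SD, n = 8). Its Cy5 and Cy3 levels had SDs of 0.962 and 1.02, so the reference spot varied between arrays as well. The Y-linked Eif2s3y and Uty were absent in Cy5 on 6 of 8 arrays each, with ratios of −1.47 ± 0.45 and −0.16 ± 0.22. The Y-linked Kdm5d was called present on 7 arrays at a low Cy5 of 226 to 504, with Cy3 of 192 to 331 and a ratio of 0.23 ± 0.29.

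In 3 lists of tissues other than liver, 1 gene each was enriched (5.56%, 7.69% and 6.67%), beside 10.3% of all genes. Synaptotagmin 1 (Syt1) of neurons was at 1.94 ± 0.44, loricrin (Lor) of the epidermis at 1.58 ± 0.51 and Spata3 of the testis at 2.29 ± 0.19 (SD, n = 8). Metallothioneins, which bind zinc and copper, were bright in both RNAs. Mt2 was saturated in liver on all 8 arrays and at least 3.83-fold higher than the reference on the scale used here (log2 ratio 1.94, or 1.39 under the deposited ratios), with Cy3 of 4836 to 25006, and Mt1 was at 1.71 ± 0.38 with 6 arrays saturated.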
